A study of Homo sapiens with 6 samples.

Results

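The human kallikrein genes encode a family of secreted serine proteases and lie side by side on chromosome 19. The 8 genes described here, KLK1, KLK2, KLK3, KLK4, KLK10, KLK11, KLK12 and KLK15, were taken by gene symbol from the deposited expression tables, which list 26255 genes and 16 KLK rows on that chromosome, 1 of which is the pseudogene KLKP1. Of the 8, 6 had a mean of at least 1 FPKM (fragment counts scaled by transcript length and by library size) over the 6 samples and were tested, among 12729 genes in all. KLK10 and KLK12 lay below that level and are described by their values.

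Kallikreins are made as inactive precursors and are switched on by removal of a short propeptide, in part by one another. In the prostate, KLK2 and KLK3 are produced by luminal epithelial cells and released into seminal fluid, where KLK3, known as prostate-specific antigen (PSA), cleaves the semenogelins of the seminal clot. Transcription of KLK2, KLK3 and KLK4 in prostate cells responds to steroid hormones, and serum PSA is the standard marker used to follow prostate cancer.

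RNA-seq was performed on 22RV1 cells, an established human line of castration-resistant prostate cancer (CRPC). The cells were kept in androgen-containing full medium with fetal bovine serum and given 10 nM bruceantin (BCT), a plant-derived quassinoid, or the vehicle DMSO for 24 h, with 3 samples in each group. All samples come from this 1 line, and the labels do not say whether the 3 samples of a group were separate cultures, so the p-values measure only the spread between these samples, which may be technical. Luminal markers were present in every sample, among them EPCAM at 59.2 to 77.1 FPKM and KRT18 at 333 to 1148 FPKM. The luminal markers went both ways with BCT. Examples are HOXB13 and EPCAM, at log2 fold changes of -0.45 and -0.29, and KRT8 and KRT18, at 1.17 and 1.72. The 3 basal markers summed to 0.032 to 0.081 FPKM with DMSO and 0.219 to 0.44 FPKM with BCT, the 3 endothelial markers to at most 0.051 FPKM and the 4 leukocyte markers to at most 0.588 FPKM. The 5 stromal markers summed to 1.67 to 1.75 FPKM with DMSO and 5.23 to 6.57 FPKM with BCT, most of it COL1A1, while COL1A2, COL3A1, DCN and PDGFRB stayed at or below 0.192 FPKM. The files hold no read counts. The depth relative to DMSO replicate 1 was 0.877 to 1 with DMSO and 1.05 to 1.13 with BCT, so depth moved with the treatment, and its part in the results was not tested.

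Because steroid hormone receptors act through DNA elements near their target genes, the upstream sequences of the members are shown first. RefSeq promoters (table on GRCh38.p14) were found for 7 of the 8 members, as 11 promoters. None was listed for KLK1, which was therefore not searched. The 250 bases before each start were placed on GRCh37/hg19, the build of the expression files, by an exact match that occurred once. The steroid response element searched for consists of the arms AGAACA and TGTTCT with any 3 letters between them, and reads the same on both strands. The 3 sequences below are those of KLK3, KLK2 and KLK4, written 5′ to 3′ on the strand of the gene. Capitals mark the window that comes closest to the element with at most 3 mismatches among its 12 fixed letters. For KLK3 and KLK4 the whole window of 250 bases is given, and neither window overlaps a GENCODE exon. The KLK3 window lies at chr19:51357921-51358170 on the plus strand and the KLK4 window at chr19:51414652-51414901 on the minus strand. The KLK4 window shown lies directly upstream of KLK4 as listed in GENCODE, which reaches to 51414651. In the expression files KLK4 starts further downstream, at 51413994. The window directly upstream of that start, chr19:51413995-51414244, belongs to the other KLK4 promoter and is not shown. For KLK2, of whose window 207 bases are exonic in at least 1 annotated transcript, the 43 bases outside any exon are given, at chr19:51376511-51376553 on the plus strand.
KLK3: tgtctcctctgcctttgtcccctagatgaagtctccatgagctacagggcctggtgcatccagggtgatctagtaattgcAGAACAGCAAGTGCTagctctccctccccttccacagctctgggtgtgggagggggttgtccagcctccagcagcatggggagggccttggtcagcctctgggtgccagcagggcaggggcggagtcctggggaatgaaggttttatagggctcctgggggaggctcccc
KLK2: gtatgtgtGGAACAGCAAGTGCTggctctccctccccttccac
KLK4: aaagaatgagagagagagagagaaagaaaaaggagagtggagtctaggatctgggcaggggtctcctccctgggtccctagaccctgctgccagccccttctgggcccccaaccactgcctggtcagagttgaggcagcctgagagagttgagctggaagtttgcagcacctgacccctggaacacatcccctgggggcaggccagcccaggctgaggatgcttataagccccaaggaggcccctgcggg

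The KLK3 window differed from the element at 2 of the 12 letters and began 170 bases before the start. The KLK2 window differed at 3 letters and began 176 bases before the start. The 250 upstream bases of KLK2 and KLK3 were identical at 205 of 259 aligned positions (79.2%), against 44.6% to 47.6% between either gene and the 2 promoters of KLK4. No other member promoter held a match with at most 3 mismatches in these bases. Of all 35116 promoters in the table, 1.41% held a match with at most 2 mismatches and 10.8% one with at most 3. All searches described here, in members and in all promoters, also covered the 50 bases after each start. The arm AGAACA alone, on either strand, was found in KLK3 only among the 7 members searched and in 14.8% of all promoters. A TATA box, as the exact letters TATAAA on the strand of the gene, was found in 1 of 2 KLK15 promoters, 30 bases before the start. It was found in 7.33% of all promoters. Variants of these letters were not searched for, so a TATA box of another form would be missed. These matches describe letters in a short window and say nothing of binding in these cells.

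Which kallikrein genes were expressed in 22RV1 cells, and which responded to BCT, was compared between the groups on log2(FPKM + 0.1) with limma and Benjamini-Hochberg adjustment over all genes tested. Calls required a change of more than 0.85 on the log2 scale, in either direction, and an adjusted p below 0.05. Of the 6 members tested, 5 were called lower with BCT (KLK1, KLK2, KLK3, KLK4 and KLK11), 0 were called higher and KLK15 was not called. Over all genes tested, 17.8% were called lower and 13.9% were called higher by the same rule. The median log2 fold change was -1.90 over the 6 members tested and -0.038 over all genes tested. In all 6, every BCT sample lay below every DMSO sample, which was so for 44.3% of all genes tested. In a bulk measurement such as this, fewer expressing cells and less RNA per cell cannot be told apart.

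**Figure D1:**
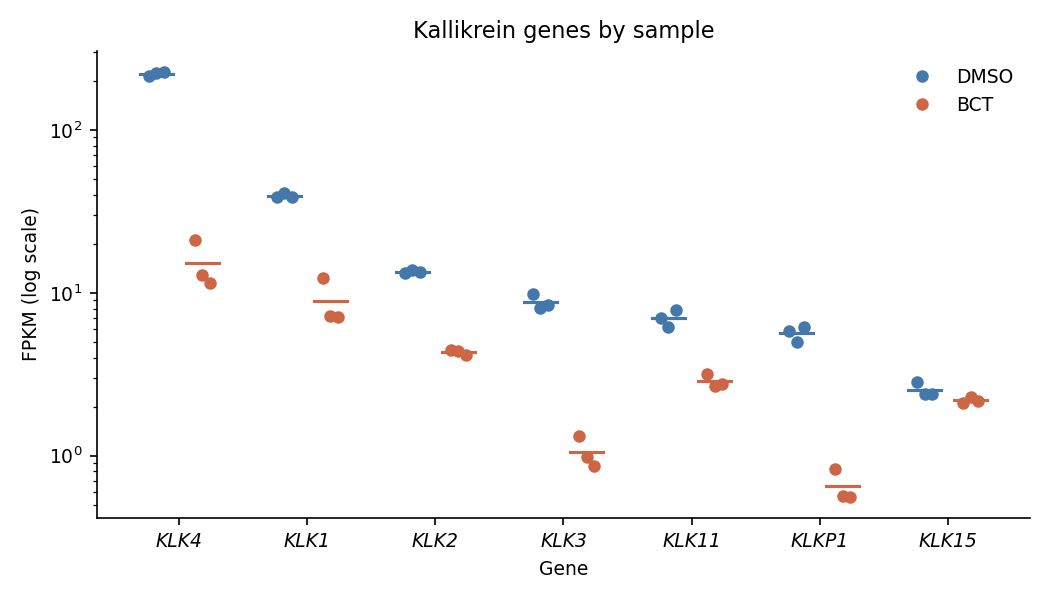
FPKM (log scale) of the 6 kallikrein members tested and of the pseudogene KLKP1 in each DMSO and BCT sample; points are samples and lines are group means (n = 3 each). KLK4 stood highest with DMSO, between 213.5 and 226.4 FPKM, and was between 11.4 and 21.1 FPKM with BCT, while the KLK15 groups lay close together.

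KLK4, a trypsin-like protease that can activate other kallikreins and is needed for tooth enamel to mature, was the most abundant kallikrein and the one that fell most. It lies at chr19:51409608-51413994 on the minus strand of hg19. Its level was 213.5, 222.1 and 226.4 FPKM in the DMSO samples and 21.1, 12.9 and 11.4 FPKM in the BCT samples. The 2 groups were far apart, and BCT replicate 1 kept the highest level of the BCT samples. The mean with BCT, 15.1 ± 5.19 FPKM, was 6.85% of the mean with DMSO, 220.7 ± 6.56 FPKM (SD, n = 3 each). The log2 fold change was -3.91 (SE 0.19, 95% confidence interval -4.36 to -3.46, adjusted p = 9.6e-07, limma, Benjamini-Hochberg), and only 22 of the genes tested had a more negative one.

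KLK3 (PSA), a chymotrypsin-like protease, lies at chr19:51358171-51364020 on the plus strand. It was measured at 9.76, 8.03 and 8.40 FPKM with DMSO against 1.32, 0.977 and 0.863 FPKM with BCT. All BCT samples were far below the lowest DMSO sample, and BCT replicate 1 was again the highest of the BCT samples. With BCT, 12.1% of the DMSO mean remained. The log2 fold change of -2.95 was exceeded in the negative direction by 67 genes.

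KLK2, a trypsin-like protease that removes the propeptide of PSA, lies beside KLK3 at chr19:51376689-51383823 on the plus strand. Its values were 13.3, 13.7 and 13.4 FPKM with DMSO and 4.48, 4.37 and 4.14 FPKM with BCT. The spread within each group was small against the gap between them, and 32.2% of the DMSO mean remained. The log2 fold change was -1.61 with a 95% confidence interval of -1.75 to -1.48, and 654 genes had a more negative one. The exons of KLK2 and KLK3 share no stretch as long as a read of 100 bases. Their longest shared stretch is 60 bases, so no read of full length lies wholly in it, and only reads trimmed to at most 60 bases could.

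KLKP1, the pseudogene between KLK2 and KLK4, is not among the 8 members but was expressed. It lies at chr19:51385352-51399654 on the minus strand and was listed at 5.84, 4.99 and 6.14 FPKM with DMSO against 0.825, 0.563 and 0.561 FPKM with BCT. The groups did not overlap, and the log2 fold change was -2.95 (SE 0.16, adjusted p = 1.3e-06, limma, Benjamini-Hochberg). Its mean with BCT was 0.650 FPKM, so it passed the filter of 1 FPKM only through DMSO. It shares stretches of at most 26 exonic bases with KLK2.

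KLK1, tissue kallikrein, releases kinins from kininogen and is best known from kidney, pancreas and salivary gland. At chr19:51322402-51327043 on the minus strand, it was the second most abundant kallikrein, with 38.8, 40.7 and 38.7 FPKM with DMSO. With BCT it was at 12.3, 7.23 and 7.08 FPKM, and BCT replicate 1 lay apart from the other two. The BCT mean was 22.5% of the DMSO mean, and the log2 fold change was -2.19 (SE 0.19, adjusted p = 1.0e-05, limma, Benjamini-Hochberg). The kininogen gene KNG1 was at most 0.012 FPKM in any sample, and the kinin receptor genes BDKRB1 and BDKRB2 were at most 0.05 FPKM with DMSO and between 0.106 and 0.232 FPKM with BCT.

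KLK11, a trypsin-like kallikrein, lies at chr19:51525487-51531290 on the minus strand. It is separated from KLK2, KLK3 and KLK4 by a run of kallikreins that were barely detected. Its values were 6.98, 6.17 and 7.87 FPKM with DMSO and 3.16, 2.68 and 2.76 FPKM with BCT. The groups did not overlap, 40.9% of the DMSO mean remained, and the log2 fold change of -1.26 (95% confidence interval -1.50 to -1.01) was the smallest of the 5 called members. It did not pass the fold change threshold after the samples were rescaled to equal FPKM sums, at -0.51, a scaling that moved the median of all genes to 0.72.

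KLK15, which can activate the PSA precursor, was the exception. Its values were 2.81, 2.41 and 2.39 FPKM with DMSO and 2.11, 2.29 and 2.17 FPKM with BCT. The groups did not overlap, but the highest BCT sample was only slightly below the lowest DMSO sample, and the BCT mean was 86.3% of the DMSO mean. The log2 fold change was -0.20 (SE 0.10, 95% confidence interval -0.44 to 0.035, adjusted p = 0.0997, limma, Benjamini-Hochberg), and its sign turned when the samples were rescaled to equal sums (0.54) or to equal sums without MIR6087 (0.17). In the files KLK15 spans chr19:51328545-51354399 on the minus strand, the same interval as the uncharacterized LOC105372441, whereas GENCODE ends KLK15 at 51340469. LOC105372441 was at 0.755, 0.534 and 1.07 FPKM with DMSO against 0.089, 0.165 and 0.083 FPKM with BCT, below the level needed for the test. The library kit does not keep the strand, so reads from transcripts of opposite strands in this interval cannot be told apart.

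**Figure D2:**
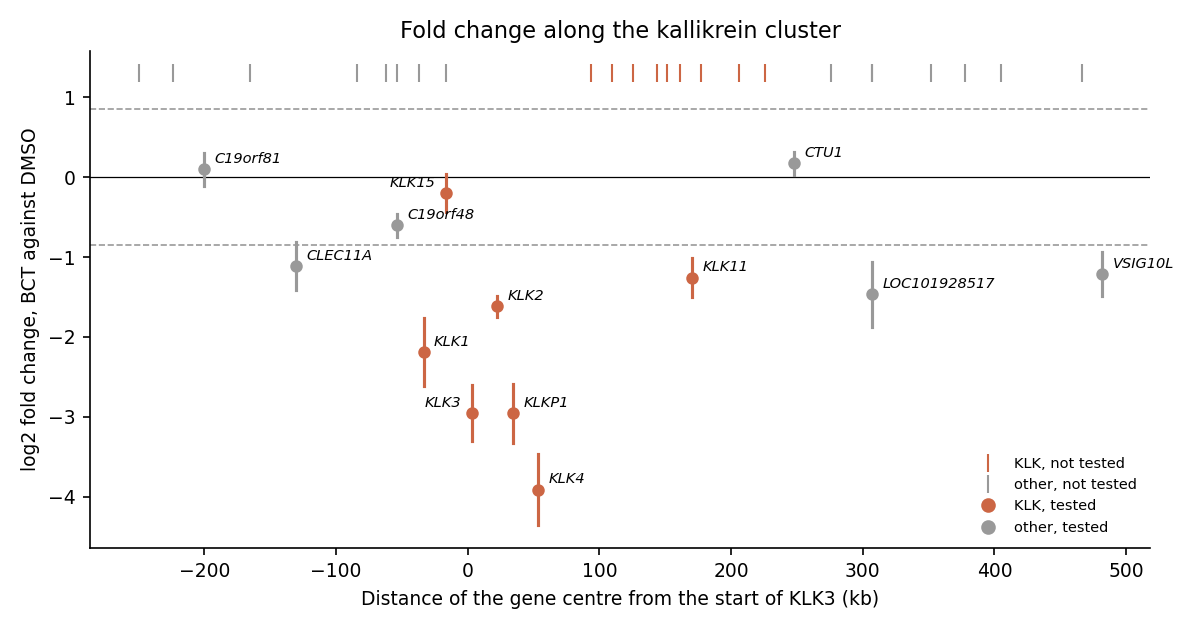
log2 fold change of BCT against DMSO for each gene tested in the kallikrein cluster and within 250 kb of it, by distance from the start of KLK3 in kb; bars are 95% confidence intervals, dashed lines the fold change threshold of 0.85, and ticks at the top genes below the expression filter (SNORD88B and SNORD88C, whose intervals are too wide for the scale, are left out). The most negative values were those of KLK3, KLKP1 and KLK4, and the KLK15 interval crosses 0.

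The other 9 KLK genes of the cluster, among them the members KLK10 and KLK12, stayed below 0.6 FPKM in every sample. KLK10, whose product is found in many normal epithelia, was listed at 0.063, 0.121 and 0.061 FPKM with DMSO against 0.008, 0.008 and 0.016 FPKM with BCT. These groups did not overlap. In a fit without the filter on low values, in which 12.9% of all genes were called lower, its log2 fold change was -0.70 (adjusted p = 0.0039, limma, Benjamini-Hochberg). That value understates the change at so low a level and depends on the pseudocount, being -2.11 with 0.01 and -0.097 with 1. KLK12, a trypsin-like kallikrein, was listed at 0.09 FPKM in DMSO replicate 3 and at 0 in the other 5 samples.

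KLK6, KLK7, KLK8, KLK9, KLK13 and KLK14 are not members, and their means were higher with BCT, all at low levels. Fewer genes of the whole series were listed at 0 with BCT, at 6386 to 6836 a sample against 7483 to 7642 with DMSO. KLK13 was at 0.162, 0.157 and 0.211 FPKM with DMSO against 0.219, 0.535 and 0.368 FPKM with BCT, with no overlap. In the fit without the filter its log2 fold change was 0.73 (adjusted p = 0.042, limma, Benjamini-Hochberg), under the fold change threshold. It ranged from 0.22 to 1.28 over the alternatives, and was above the threshold with a pseudocount of 0.01, after rescaling to equal sums and without BCT replicate 1 (0.98). KLK14 was at 0.288 to 0.418 FPKM with DMSO and 0.396 to 0.496 FPKM with BCT, and the groups overlapped; its log2 fold change was 0.31, and 0.92 after rescaling to equal sums. KLK5 was listed at 0 in every sample, and KLK6, KLK7, KLK8 and KLK9, several of them known from skin, were at most 0.141 FPKM. KLK8 and KLK9 share an exonic stretch of 204 bases, longer than a read, so their values cannot be fully separated.

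In order of mean level with DMSO, the tested genes ran KLK4, KLK1, KLK2, KLK3, KLK11, KLKP1 and KLK15, and no neighbors in that order overlapped between samples. With BCT the order was KLK4, KLK1, KLK2, KLK11, KLK15, KLK3 and KLKP1. KLK3 thus passed from above KLK11 and KLK15 to below both, with no overlap between samples on either side. With BCT the KLK4 and KLK1 samples overlapped, as BCT replicate 1 held 12.3 FPKM of KLK1 and BCT replicate 3 held 11.4 FPKM of KLK4, although KLK4 exceeded KLK1 within each sample. FPKM values are scaled by transcript length, so these levels can be set beside each other only as far as the lengths used, which are not given, are right. The place of KLK15 in the order, also against KLK3, carries the further limit of its shared interval.

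The 8 members summed to 285.3, 293.2 and 297.2 FPKM in the DMSO samples and to 44.4, 30.4 and 28.5 FPKM in the BCT samples. The mean sum was thus 8.48 times higher with DMSO than with BCT, and the groups did not overlap (exact two-sided permutation test, p = 0.1, the smallest that 3 samples against 3 allow). KLK4 made up 74.8% to 76.2% of the sum with DMSO and 40.2% to 47.4% with BCT. The shares of KLK1 and KLK2 were higher with BCT, at 25.4% ± 2.004 against 13.5% ± 0.450 for KLK1 and 13.0% ± 2.52 against 4.61% ± 0.102 for KLK2 (SD, n = 3 each). KLK11 held 2.40% of the sum with DMSO and 8.54% with BCT, and KLK15 0.870% and 6.63%. The share of KLK3 was 2.995% ± 0.371 with DMSO and 3.07% ± 0.125 with BCT, and its samples overlapped.

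**Figure D3:**
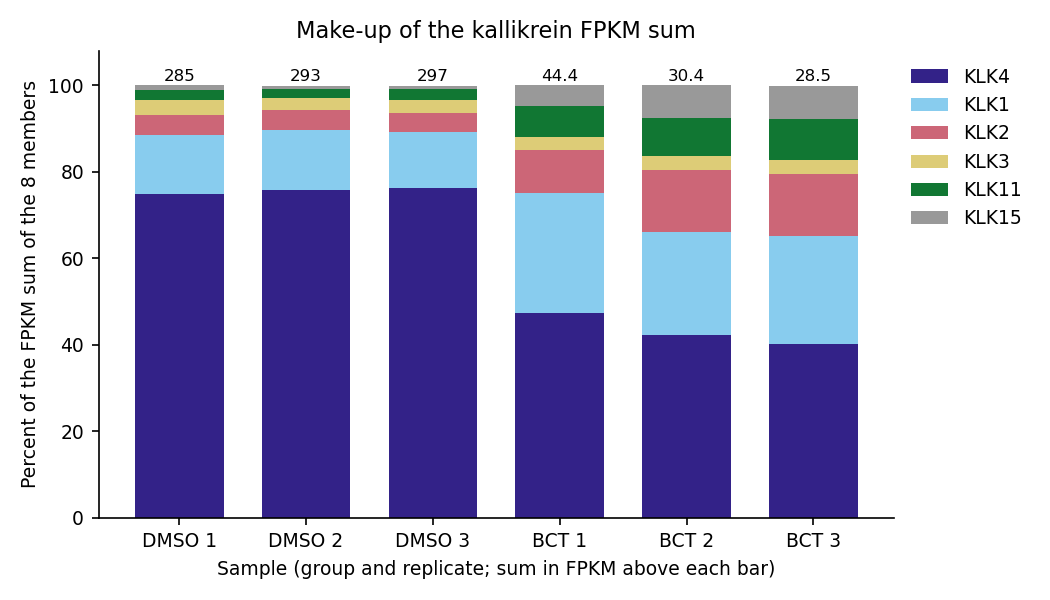
Percent of the FPKM sum of the 8 members held by each of the 6 members tested, in each sample, with the sum in FPKM above each bar; KLK10 and KLK12 are too small to draw. The KLK4 part shrank from 74.8% to 76.2% with DMSO to 40.2% to 47.4% with BCT, and the parts of KLK1, KLK2, KLK11 and KLK15 were larger in every BCT sample.

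Whether KLK2, KLK3 and KLK4 changed by the same factor was examined with ratios of FPKM within a sample, which no scaling of a sample can alter. The ratio of KLK3 to KLK2 was 0.734, 0.585 and 0.629 with DMSO and 0.295, 0.224 and 0.208 with BCT, a drop of 2.70-fold. The ratio of KLK4 to KLK2 was 16.1, 16.2 and 17.0 with DMSO and 4.70, 2.94 and 2.76 with BCT, a drop of 4.87-fold. The ratio of KLK4 to KLK3 was 21.9, 27.6 and 27.0 with DMSO and 15.9, 13.2 and 13.3 with BCT, a drop of 1.80-fold. All 3 ratios were lower in every BCT sample than in any DMSO sample, that is, the drop was larger for KLK4 than for KLK3 and larger for KLK3 than for KLK2. The exact two-sided permutation test gave p = 0.1 for each of the 3 pairs (0.1 after Benjamini-Hochberg adjustment), which is the smallest value this design allows and does not pass 0.05.

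**Figure D4:**
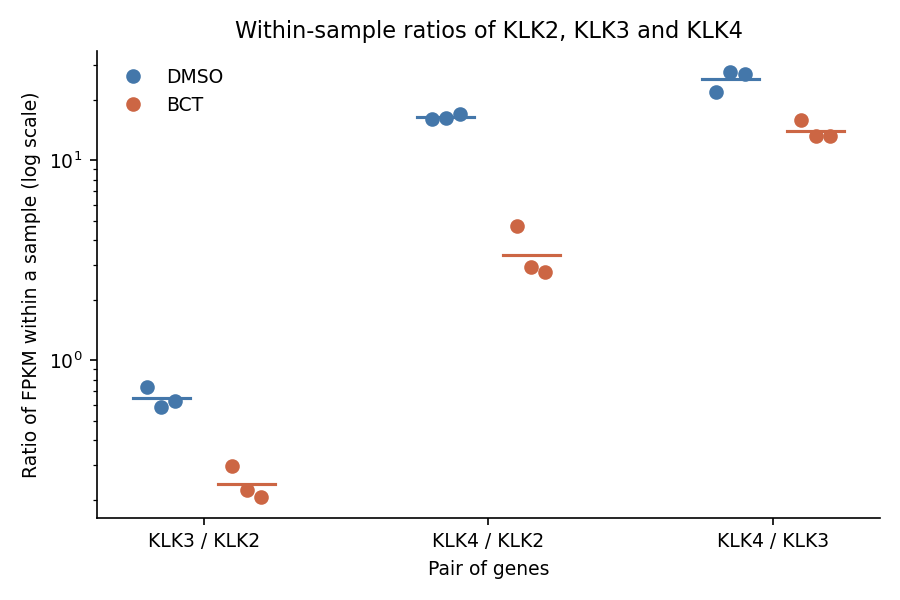
Ratio of FPKM between pairs of KLK2, KLK3 and KLK4 within each sample (log scale); points are samples and lines are geometric means of 3. In all 3 pairs the BCT samples lie below the DMSO samples, most widely for KLK4 to KLK2, at 2.76 to 4.70 against 16.1 to 17.0.

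BCT replicate 1 was the highest of the BCT samples for each of the 5 members called lower. The same held for 88.8% of all 2263 genes called lower. Without it, the log2 fold changes were -4.17 for KLK4, -3.11 for KLK3, -2.45 for KLK1, -1.64 for KLK2 and -1.33 for KLK11, and all 5 remained called.

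**Figure D5:**
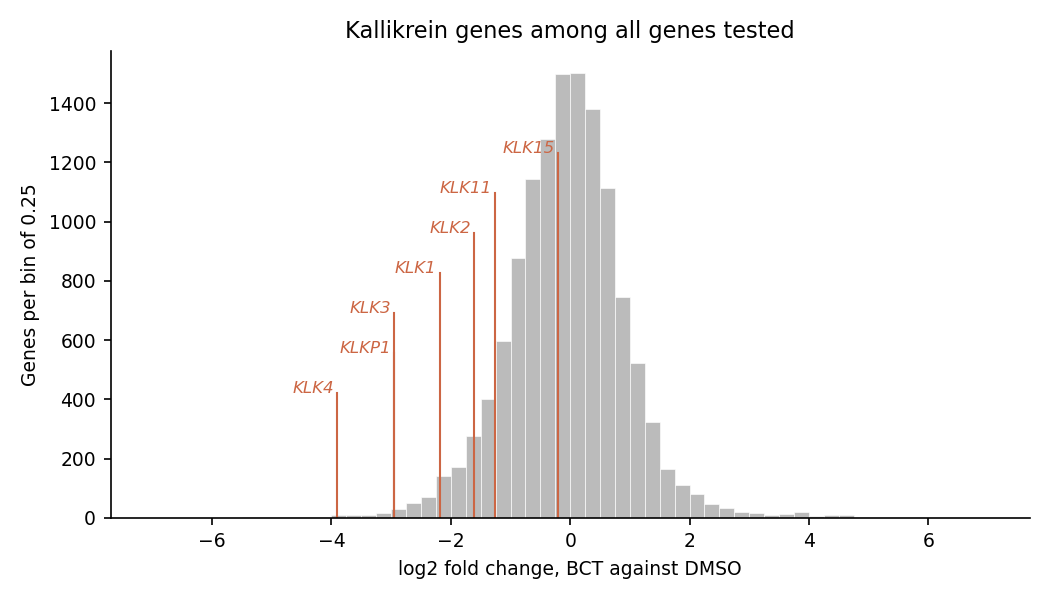
Number of genes per bin of 0.25 in log2 fold change, BCT against DMSO, for the 12729 genes tested (grey), with the 6 members tested and KLKP1 marked by lines whose height has no meaning. The members called lower lie in the left tail, from -3.91 for KLK4 to -1.26 for KLK11, and KLK15 at -0.20 lies in the middle.

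The genes around the cluster gave a mixed picture. Of 22 rows that start within 250 kb of the outermost KLK genes, 8 were tested. Of these 8, 3 were called lower and 0 higher, beside 17.8% and 13.9% of all genes tested. After rescaling to equal sums none of these 3 passed the threshold, with CLEC11A at -0.36, VSIG10L at -0.48 and LOC101928517 at -0.75, and CTU1 passed it as higher at 0.93. CLEC11A, a secreted growth factor gene, was at 6.31, 5.29 and 6.58 FPKM with DMSO against 3.25, 2.39 and 2.64 FPKM with BCT, a log2 fold change of -1.11. Its largest adjusted p over the alternatives was 0.17 (limma, Benjamini-Hochberg). On the other side, LOC101928517 was at -1.46 and VSIG10L at -1.21. The mean of LOC101928517 was 2.71 FPKM with DMSO and 0.933 FPKM with BCT, so it passed the filter of 1 FPKM only through DMSO. The nearest tested rows outside the KLK genes were CTU1, a tRNA-modifying enzyme gene, which was not called (0.17), and the small nucleolar RNA genes SNORD88B and SNORD88C, which share their interval in the files with C19orf48. SNORD88B was listed at 84.0, 337.1 and 210.1 FPKM with DMSO against 92.4, 79.1 and 0 FPKM with BCT, and SNORD88C at 84.0 FPKM in DMSO replicate 1 and at 0 elsewhere. Neither was called, at log2 fold changes of -4.33 (SE 2.32) and -3.24 (SE 2.32). C19orf48 itself, at 456.8 to 501.8 FPKM with DMSO and 297.9 to 336.7 FPKM with BCT, had a log2 fold change of -0.60 and was not called.

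The genes whose levels over the 6 samples were most like those of a kallikrein were sought by the root mean square difference of log2(FPKM + 0.1), each gene centered on its own mean, among the 12729 tested. For KLK2 they were APAF1, PSAP, MCM7, FABP5 and ALDH3B1, at differences of 0.039 to 0.043. For KLK3 they were MAT1A, GINS2, ALDH6A1, LOC730102 and TMEM97, at 0.048 to 0.088, with KLKP1 in place 10 at 0.099. For KLK4 they were CCKBR, CYP2C8, NRGN, SQLE and SCD, at 0.080 to 0.16, with KLKP1 in place 31 and KLK3 in place 32. With BCT, CCKBR and CYP2C8 averaged only 0.365 and 0.143 FPKM, so their likeness to KLK4 depends on the pseudocount of 0.1. Their log2 fold changes ran from -4.21 to -2.47 and from -4.54 to -1.94 over the alternatives. MAT1A and ALDH3B1, at means of 0.443 and 0.466 FPKM with BCT, share this limit. KLK2 and KLK3, side by side on the chromosome, differed by 0.69, which put KLK2 in place 618 among the genes most like KLK3. These differences describe 6 samples in 2 groups and reflect mainly the size of the change between the groups.

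Proteases that activate kallikreins, or work beside them, were measured in the same cells. Of 12 such genes, 6 were tested, of which 3 were called lower and 1 higher, with a median log2 fold change of -0.74. Over all genes tested, 17.8% were called lower and 13.9% higher, with a median of -0.038. HPN, which encodes the membrane protease hepsin, was at 15.0, 12.7 and 14.9 FPKM with DMSO and 6.16, 4.79 and 5.003 FPKM with BCT (-1.40 on the log2 scale). TMPRSS2, another membrane serine protease, had a log2 fold change of -1.59. PRSS8 (prostasin) was called at -0.88 but not without DMSO replicate 1 (-0.83), DMSO replicate 3 (-0.84) or BCT replicate 2 (-0.84). DPP4, a dipeptidyl peptidase of the cell surface, was called higher, at 3.48 to 3.52 FPKM with DMSO and 6.40 to 7.56 FPKM with BCT (0.97), but was at 0.82 with a pseudocount of 1 and did not pass a test against the threshold itself. ST14 (matriptase) and ENPEP had log2 fold changes of -0.60 and 0.79 and were not called.

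Of 19 inhibitors of kallikreins and related proteases, 6 were tested, of which 2 were called lower and 1 higher, with a median of -0.63. The shares of all genes tested were 17.8% lower and 13.9% higher. SPINT2, a Kunitz-type inhibitor of hepsin and matriptase, went from 302.7, 275.9 and 296.4 FPKM with DMSO to 148.0, 129.5 and 124.4 FPKM with BCT (-1.12). A2M, the broad protease trap α2-macroglobulin, was called lower at -1.56. SPINK5, the skin inhibitor of KLK5 and KLK7, was called higher at 1.26, from 1.59 to 2.07 FPKM with DMSO to 4.19 to 4.61 FPKM with BCT. SPINK1, SPINT1 and SERPINB6 had log2 fold changes of -0.61, -0.64 and -0.49 and were not called. SERPINA3, the main serum partner of PSA, and SERPINA5 were at most 0.457 FPKM.

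Of 20 substrates and receptors, 10 were tested, of which 3 were called lower and 2 higher, with a median of -0.40. Among all genes tested, 17.8% were called lower and 13.9% higher. IGFBP3, an insulin-like growth factor carrier that PSA cleaves, was at 121.8, 149.4 and 130.0 FPKM with DMSO and 36.8, 31.7 and 32.3 FPKM with BCT (-1.99). IGFBP2, another carrier of the family, was at -1.95, and HGF, a growth factor made as an inactive precursor, at -1.27. TGFB2 and PTHLH, both encoding secreted signals, were called higher at 3.07 and 2.64. TGFB2 was at 0.158 to 0.255 FPKM with DMSO and 2.31 to 2.71 FPKM with BCT, so it passed the filter only through BCT, and its log2 fold change was 1.53 with a pseudocount of 1. The semenogelin genes SEMG1 and SEMG2 were at most 0.012 FPKM. F2RL1, the protease-activated receptor PAR2, was at 15.1 to 15.6 FPKM with DMSO and 11.0 to 12.3 FPKM with BCT and was not called (-0.38).

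Other secretory genes of the prostate were compared as well. Of 13 listed symbols, 12 were found in the files and 6 were tested. Of these 6, 2 were called lower and 0 higher, beside 17.8% and 13.9% of all genes tested, with a median of -0.47. AZGP1, which encodes zinc-α2-glycoprotein, was at 83.0, 74.9 and 84.1 FPKM with DMSO and 16.7, 14.0 and 14.3 FPKM with BCT (-2.42). SLC45A3, the gene of the prostate protein prostein, was at 15.7, 11.1 and 13.9 FPKM with DMSO and 3.53, 2.01 and 2.33 FPKM with BCT (-2.35). The acid phosphatase gene ACPP (-0.67), CPE (-0.27), SPDEF (-0.25) and FOLH1 (0.39), the gene of prostate-specific membrane antigen, were not called.

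Among 24 regulators of kallikrein transcription, 21 were tested, of which 1 was called lower and 7 higher, with a median of 0.47. Of all genes tested, 17.8% were called lower and 13.9% higher. FOXA1, a pioneer factor, and HOXB13, a homeobox factor of prostate cells, were at -0.08 and -0.45 and were not called. The sign of FOXA1 turned after rescaling to equal sums (0.69), to equal sums without MIR6087 (0.30) and by quantile normalization (0.23), and that of HOXB13 after the first of these (0.32). DDC, an enzyme of amine synthesis, was the gene called lower (-1.85). The 7 called higher were JUN (3.50), NR3C1 (2.22), ETV1 (1.91), CREBBP (1.64), EP300 (1.60), NCOA3 (1.33) and MED1 (1.04). The call of MED1 did not hold under every alternative, where its largest adjusted p was 0.074 (limma, Benjamini-Hochberg). JUN, a subunit of the AP-1 transcription factor, was at 20.6, 19.4 and 20.2 FPKM with DMSO and 195.5, 262.2 and 230.0 FPKM with BCT. NR3C1, the glucocorticoid receptor, was at 4.37, 3.94 and 4.11 FPKM with DMSO and 17.6, 19.9 and 21.6 FPKM with BCT.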

How the data were processed

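Libraries were prepared from purified total RNA with the TruSeq RNA v2 kit, which does not keep the strand, and sequenced as paired reads of 100 bases. Per the study's methods, the authors trimmed reads with Trimmomatic, aligned them to hg19 with HISAT2 and assembled them with StringTie, and they deposited FPKM values per gene for each sample; the submitters' processing notes name CASAVA, Trimmomatic 0.38, HISAT2 and HTSeq. The gene annotation is not given in the sources used here. Genes with a mean below 1 FPKM were set aside, and differences of log2(FPKM + 0.1) were tested with limma 3.58.1 in R 4.3.3 (trended variance); the steps were tested on simulated data. Ratios and sums were compared by exact permutation tests (scipy). Starts in the files count from 0, and 1 was added. Relative depth came from genes of 0.02 to 0.15 FPKM.

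The members, gene lists and tests were chosen with earlier results of these data known. Besides the members, the text names the KLK rows, the tested neighbors with the largest change and nearest to the cluster, the genes most like KLK2, KLK3 and KLK4, and from each list at most 8 genes (those called and others by role); 1 gene of the lists is not reported here. Genes named although not called, C19orf48 and LOC105372441 among them, were chosen after their values were seen. The FDR of 0.05 is that of the study's results text, and 0.01 was an alternative, beside other pseudocounts, filters, scalings, variance models, the replicate block and each sample left out.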

Additional observations from a re-analysis of the deposited data

How the results depend on the processing

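The count of 5 members called lower held under every pseudocount, variance model, FDR and left-out sample tried, and with a mean of at least 5 FPKM it was 3, as only 3 members were then tested. With each sample left out, the log2 fold change of KLK15 ranged from -0.24 to -0.13. Rescaling each sample to an equal FPKM sum, which moved the median of all genes to 0.72 (MIR6087 alone held 43.5% to 55.3% of the sum with DMSO and 31.7% to 32.5% with BCT), left 4 members called, with KLK2 at -0.857, barely past the threshold, KLK11 at -0.51, KLK15 at 0.54 and the log2 change of the members' sum at -2.34 instead of -3.11. Under this scaling FOXA1 was at 0.69 and HOXB13 at 0.32, and TMPRSS2, HPN, PRSS8, SPINT2, A2M, HGF and the neighbors CLEC11A, VSIG10L and LOC101928517 were no longer called, while CTU1 (0.93) was called higher. Rescaling without MIR6087 put KLK15 at 0.17 and FOXA1 at 0.30, and quantile normalization put FOXA1 at 0.23. The number of all genes called lower, 2263 as reported, was 668 and 1208 under the 2 rescalings to equal sums and 1392 when tested against the fold change threshold. Under these rescalings 5614 and 3370 genes were called higher, against 1764.

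Both groups carry replicate numbers 1 to 3 in the sample titles. The deviations of same-numbered samples from their group means correlated at 0.12, 0.033 and 0.034, and not every sample correlated best with its own number, so the numbers were not taken to pair the samples. With the replicate number as a block, 5 members and 2266 genes in all were called lower, and KLK4 had an adjusted p of 2.7e-06 from limma. The tests planned for counts were not run because the files hold FPKM.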
